A study of Mus musculus with 11 samples.

Results

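The intervals described here were called for the cohesin subunit SMC1 in SA1-null mouse embryonic fibroblasts, with no overlapping SMC3 interval in the same cells and no overlapping interval in any of the 4 wild-type lists (SA1, SA2, SMC1 and SMC3). An overlap of 1 bp was enough to exclude an interval. They were selected on these measured positions in 6 lists, so their absence from the other lists describes the choice. This selection left 12895 of the 47003 SA1-null SMC1 intervals, a share of 27.4%, out of 163094 intervals in all 10 lists. They are called new SMC1-only intervals below, where "new" means found in no wild-type list and "SMC1-only" means without a called SMC3 interval. Both properties come from the selection itself.

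Chromatin immunoprecipitation with sequencing (ChIP-seq) had been done in untreated primary embryonic fibroblasts of stage E12.5 on a C57BL/6 x 129 Sv background. SA1-null cells were examined with antibodies to SMC1 (2 samples that share 1 list), SMC3, SA2 and SA1 (1 sample each), and wild-type cells with the same 4 antibodies (1 sample each). The other 2 of the 11 samples were input DNA, each pooled over both genotypes. The labels do not give the number of embryos or cultures behind a sample, the sex of the embryos, or how the SA1-null allele was made.

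Cohesin is a ring that holds sister chromatids together and extrudes chromatin loops. SMC1 and SMC3 are long coiled-coil proteins that pair at their hinges, and a kleisin closes the ring between their ATPase heads, so that a complete ring holds both SMC proteins. Each ring also carries an SA protein, SA1 or SA2 in somatic cells, and on chromosome arms much of vertebrate cohesin is found where the DNA-binding protein CTCF sits. Cells that lack SA1 still have SA2.

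The lists hold positions only, with no height, score or p-value, and sequencing depth is unknown. The SA1-null SMC3 list, from 1 library, held 34802 intervals, the SA1-null SA2 list 6352 and the SA1-null SA1 list 177, against 26602 for SA1 in wild-type cells. Without replicate lists there is no spread between samples, and no test between groups was made. The bracketed ranges are 95% Wilson intervals for shares and binomial order-statistic intervals for medians. They cover the counting of intervals within these lists, and neighbouring intervals are not independent. The part of the 2 SMC1 replicates behind 1 list in the results was not tested.

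Most SMC1 intervals that were new in SA1-null cells had no SMC3 interval. Of the 19860 SA1-null SMC1 intervals without any wild-type interval, the 12895 new SMC1-only intervals made up 64.9%, and the other 6965 overlapped SMC3. Among the 15702 SMC1 intervals without SMC3, the new ones made up 82.1%, and the other 2807 overlapped some wild-type interval. The largest class of the list, 24336 intervals or 51.8% (51.3 to 52.2%), had both an SMC3 and a wild-type interval. These 4 classes, new or known (with some wild-type interval) and with or without SMC3, serve as the comparisons in what follows. The new SMC1-only intervals covered 6.18 Mb of the 26.8 Mb of the SMC1 list, or 23.0%.

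The same selection turned round gave smaller sets. For SMC3 in SA1-null cells, 2941 of 34802 intervals (8.45%, 8.16 to 8.75%) overlapped neither an SA1-null SMC1 interval nor a wild-type one. In wild-type cells, 1072 of 24000 SMC1 intervals (4.47%, 4.21 to 4.74%) overlapped neither a wild-type SMC3 interval nor any interval of the 4 SA1-null lists. Without the condition on the other genotype the order differed. In SA1-null cells 33.4% (33.0 to 33.8%) of SMC1 intervals had no SMC3 interval, and in wild-type cells 39.3% (38.7 to 39.9%). The SMC1 list was the longer of each pair, by 47003 to 34802 in SA1-null cells and by 24000 to 15564 in wild-type cells.

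The new SMC1-only intervals were narrow. Their median width was 446 bp (443 to 449 bp), against 556 bp (551 to 562 bp) for new intervals with SMC3 and 582 bp (580 to 585 bp) for known intervals with SMC3. Known intervals without SMC3 had nearly the same width as the new SMC1-only intervals, 437 bp (431 to 443 bp). On each of the 19 autosomes the median of the new SMC1-only intervals was below that of both classes with SMC3, whereas it was below that of known intervals without SMC3 on 6 of 19. Their middle 50% spanned 366 to 556 bp, and the whole set ran from 169 to 1528 bp. Widths of 1000 bp or more were found in 131 of them (1.02%), against 5.44% of the rest of the SMC1 list. Widths under 300 bp made up 6.85%, against 2.49% of the rest. How the peak caller set the width of an interval is not known here, so width cannot be read as an amount of bound protein.

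**Figure D1:**
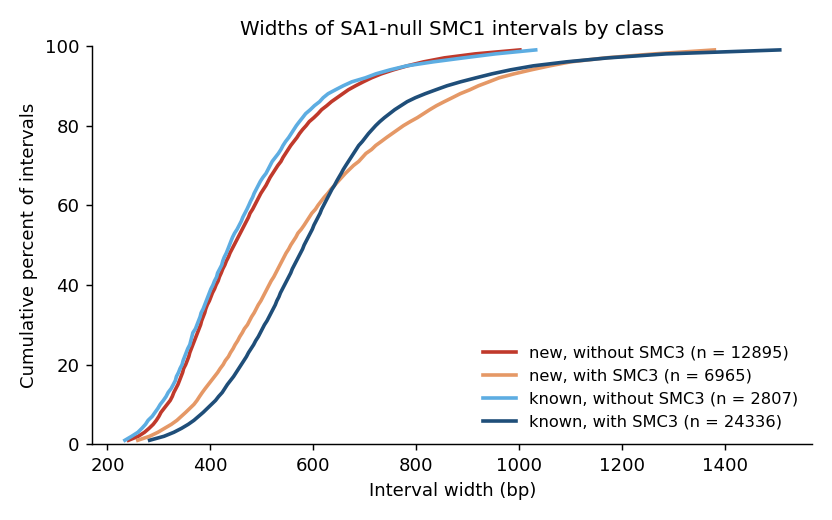
Cumulative percent of SA1-null SMC1 intervals (vertical axis) by width in bp (horizontal axis, 1st to 99th percentile) for the 4 classes. The curves of both classes without SMC3 run together, with medians of 446 and 437 bp, to the left of both classes with SMC3, with medians of 556 and 582 bp.

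The share of SMC1 intervals without SMC3 fell with width among new intervals and, up to the widest classes, among known ones. The SMC1 list was divided into 10 classes of equal number by width. In the narrowest class, up to 349 bp, 82.3% (80.9 to 83.6%) of the 3021 new intervals had no SMC3 interval, against 36.2% (33.9 to 38.5%) of the 1679 known ones. In the widest class, from 817 bp, the shares were 30.2% (28.0 to 32.4%) of 1664 new intervals and 3.89% (3.25 to 4.63%) of 3037 known ones. New intervals without SMC3 were more frequent than known ones without SMC3, as shares, in each of the 10 width classes, and among them the share was lower in every wider class. New SMC1-only intervals made up 52.9% of the narrowest class and 10.7% of the widest.

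**Figure D2:**
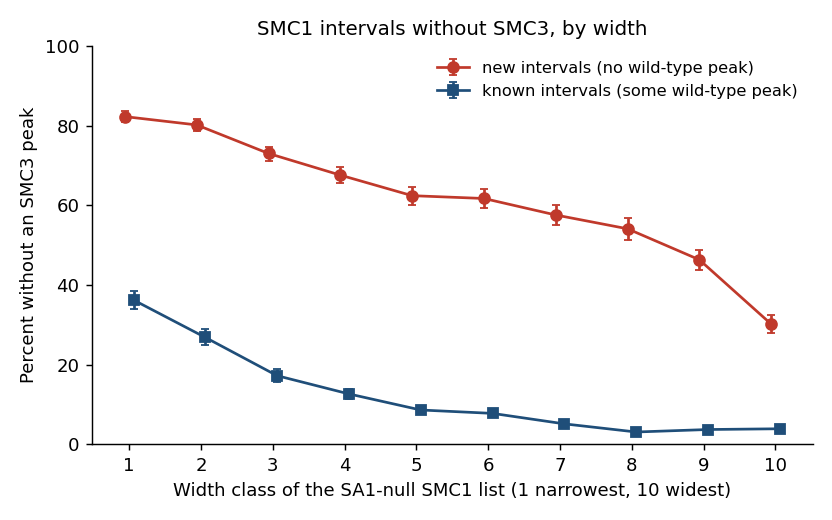
Percent of SA1-null SMC1 intervals without an SMC3 interval (vertical axis) in 10 width classes (horizontal axis), for new and for known intervals; bars are 95% Wilson intervals. New intervals stand above known ones in every class, from 82.3 against 36.2% in the narrowest to 30.2 against 3.89% in the widest.

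Their number depends on how much of the SMC1 list is admitted. Of the new SMC1-only intervals, 3789 (29.4%) were at least as wide as the list's median of 535 bp. When the SMC1 list was shortened to its widest intervals, as many as the SMC3 list holds, 6993 of them were left, 20.1% of the shortened list. The SMC3 list, at the same length, held 8.45% new intervals without SMC1, counted against the full SMC1 list.

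SA2, which the selection did not use in SA1-null cells, was called at almost none of the new SMC1-only intervals. An SA1-null SA2 interval overlapped 5 of the 12895 (0.0388%, 0.0166 to 0.0907%), against 11.9% of the whole SMC1 list. New intervals with SMC3 were likewise nearly without SA2, at 7 of 6965 (0.101%, 0.0487 to 0.207%), and the intervals of these 2 shares overlap. Known intervals had SA2 far more often, at 124 of 2807 without SMC3 (4.42%, 3.72 to 5.24%) and 5468 of 24336 with SMC3 (22.5%, 21.9 to 23.0%). By width, the new SMC1-only intervals stood below known intervals with SMC3 in all 10 classes. In the widest class none of 502 new SMC1-only intervals had SA2, against 704 of 2919 known intervals with SMC3 (24.1%), and in the narrowest class 2 of 2485 had it, against 77 of 1071 (7.19%). Against known intervals without SMC3 the gap was not seen at every width. In the narrowest class 35 of 608 of these (5.76%) had SA2, but in the widest none of 118 did. Few SA2 intervals were free to fall on new positions, since only 506 of the 6352 (7.97%) lay outside every wild-type list. The SA2 list was also called against the other input and was the shorter list by far, so an SMC1 interval without an SA2 interval is not shown to lack SA2.

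**Figure D3:**
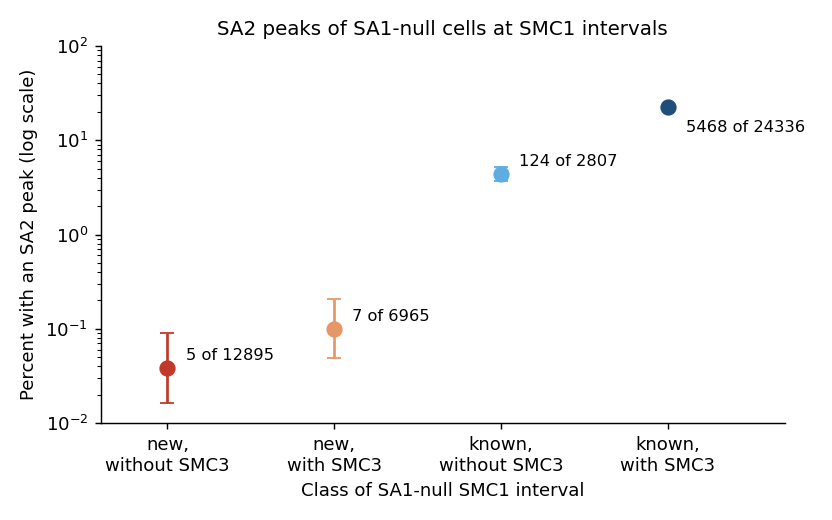
Percent of SA1-null SMC1 intervals with an overlapping SA1-null SA2 interval (vertical axis, log scale) in the 4 classes (horizontal axis); points are shares, bars are 95% Wilson intervals, and the counts are written beside them. Both new classes lie at or below 0.101%, with overlapping intervals, and both known classes at 4.42% and 22.5%.

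The 5 new SMC1-only intervals with SA2 were in part close to other cohesin intervals. The widest, 694 bp on chromosome 1 from 92917698 to 92918391 (mm9), shared 533 bp with SA2 and lay 520 bp from an SMC3 interval. That on chromosome 16 from 24316023 to 24316625 was 603 bp wide and shared 481 bp with SA2, with the nearest SMC3 interval 22386 bp away and a wild-type SA1 interval at 3341 bp. On chromosome 5 there were 2, from 121243007 to 121243602 and from 139564142 to 139564443, which shared 559 and 263 bp with SA2 and lay 10034 and 2519 bp from SMC3. The narrowest, 289 bp on chromosome 4 from 72567231 to 72567519, lay wholly inside an SA2 interval and 136094 bp from SMC3.

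The distance to SA2 was much alike for the new SMC1-only intervals and the new intervals with SMC3. Within 5 kb, overlaps included, an SA2 interval was present for 4.54% (4.20 to 4.92%) of the new SMC1-only intervals, against 4.49% (4.03 to 5.01%) of new intervals with SMC3, 10.6% (9.53 to 11.8%) of known intervals without SMC3 and 27.1% (26.5 to 27.6%) of known intervals with SMC3. The median distance to SA2 was 89249 bp (86920 to 91733 bp) for the new SMC1-only intervals against 89888 bp (87108 to 92855 bp) for the new intervals with SMC3, 89438 bp (83430 to 95034 bp) for known intervals without SMC3 and 54620.5 bp (53042 to 56250 bp) for known intervals with SMC3.

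Few new SMC1-only intervals lay in regions that gave intervals without a cohesin antibody target. The 2 input lists and the SA1-null SA1 list, in which the antibody has no target protein, overlapped 6 of the 12895 (0.0465%, 0.0213 to 0.101%), against 0.0638% of the whole SMC1 list. These 3 lists are short, with 436, 417 and 177 intervals, so such a share could not have been high. The SMC1 list was also called against the input of the SMC libraries, which can itself keep its overlap with that input list low. The small share therefore does not show that the new SMC1-only intervals are free of background. The widest of the 6 spanned 893 bp on chromosome 11 from 116625714 to 116626606, in the input list of the SMC libraries. That input list also held the one at bases 19703049 to 19703619 of chromosome 8 and the one at bases 47728385 to 47728764 of chromosome 6. The other input list held that on chromosome 1 from 188442062 to 188442589. The other two, on chromosome 2 from 27351619 to 27352214 and from 27352260 to 27352522, lay 45 bp apart and both overlapped SA1-null SA1 intervals.

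The new SMC1-only intervals were mostly kilobases away from the intervals that the selection had kept them from overlapping. These distances describe the selected set and carry no test. The nearest SA1-null SMC3 interval was at a median of 11771 bp (11402 to 12093 bp), and the middle 50% of distances spanned 3750.5 to 28469 bp. An SMC3 interval lay within 5 kb of 29.8% (29.0 to 30.6%), within 1 kb of 9.72% and within 500 bp of 5.43%. Known intervals without SMC3 had nearly the same share within 5 kb, 28.3% (26.6 to 29.9%). At the other end, 1608 new SMC1-only intervals (12.47%, 11.9 to 13.1%) were more than 50 kb from SMC3, against 20.1% (18.7 to 21.6%) of known intervals without SMC3.

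At the edge of the selection, 152 new SMC1-only intervals (1.18%) had fewer than 100 bp between them and an SMC3 interval, and 93 (0.721%) had fewer than 100 bp to a wild-type interval. On the excluded side, 99 new intervals shared fewer than 100 bp with SMC3. The 3 closest to SMC3 spanned bases 92984627 to 92985085 of chromosome 1, bases 4191392 to 4191641 of chromosome 19 and bases 51652999 to 51653347 of chromosome 1, with 1, 3 and 5 bp between. The 3 just excluded spanned bases 77501009 to 77501838 of chromosome 16, bases 5345065 to 5345497 of chromosome 19 and bases 89484172 to 89484549 of chromosome 7, and shared 1, 1 and 2 bp with SMC3.

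With all wild-type lists pooled, the nearest interval was somewhat farther from the new SMC1-only intervals than from new intervals with SMC3. The medians were 14825 bp (14379 to 15282 bp) and 13098 bp (12553 to 13618 bp) in that order. A wild-type interval lay within 5 kb of 24.2% (23.5 to 24.95%) of the new SMC1-only intervals, against 28.5% (27.5 to 29.6%) of the new intervals with SMC3. Per autosome the 2 shares ranged from 18.9 to 30.2% and from 20.8 to 34.8%. These ranges include differences between chromosomes that both classes share, and the 2 shares were not compared chromosome by chromosome. By subunit, the median distance to wild-type SMC1 was 20461 bp (19863 to 21158 bp) for the new SMC1-only intervals, against 18546 bp (17813 to 19318 bp) for new intervals with SMC3. To SA1 they were 23134 and 22820 bp, to SMC3 33592 and 32528 bp and to SA2 73294 and 74015 bp in the same order, each pair with overlapping intervals. Wild-type SMC1 was within 5 kb of 18.9% of the new SMC1-only intervals, SA1 of 16.6%, SMC3 of 11.7% and SA2 of 5.39%. The nearest wild-type interval was an SMC1 interval for 5548 of them (43.0%), where SMC1 gave 32.5% of all wild-type intervals. It was SA1 for 36.6%, SMC3 for 12.4% and SA2 for 7.98%, where these lists gave 36.0, 21.1 and 10.5% of wild-type intervals. The other classes were not counted in this way, so no preference of the new SMC1-only intervals can be read from these shares.

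Both distances together mark 2 fringes of the set. Within 5 kb of SMC3 and of some wild-type interval lay 2576 new SMC1-only intervals (20.0%), with a median width of 444 bp and 0.893% of them on chromosome X. More than 50 kb from both lay 1096 (8.50%, 8.03 to 8.99%), with a median width of 415 bp and 5.38% of them on chromosome X. Chromosome X held 1.71% of all new SMC1-only intervals and 1.93% of the SMC1 list. Intervals were sparse and narrow on X, and the part of X in the width of this fringe was not tested.

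**Figure D4:**
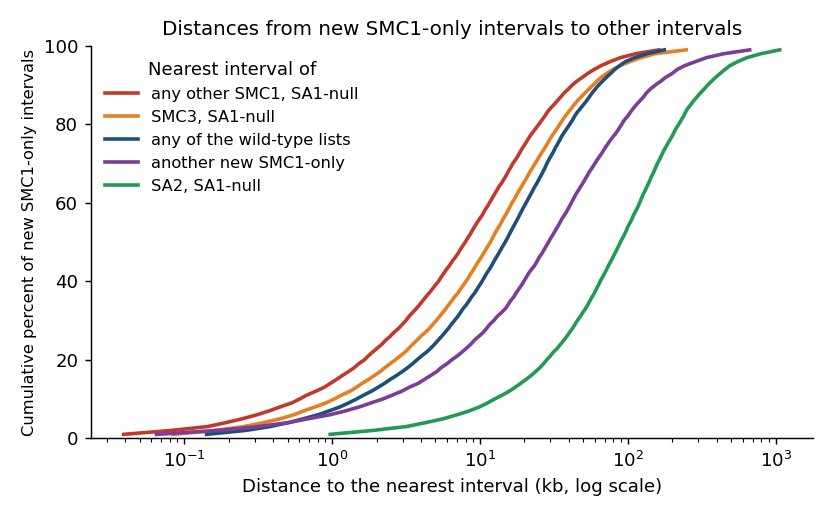
Cumulative percent of the 12895 new SMC1-only intervals (vertical axis) by distance in kb (horizontal axis, log scale) to the nearest other SMC1, SMC3 or SA2 interval of SA1-null cells, to the nearest interval of any wild-type list and to the nearest of their own kind. Medians in order of distance are 7961 bp (other SMC1), 11771 bp (SMC3), 14825 bp (wild type), 29121 bp (own kind) and 89249 bp (SA2); the lists differ in length.

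Along the SMC1 list, new SMC1-only intervals lay beside each other somewhat more often than their share of the list, as every other class did. The intervals just before and just after each of them gave 25785 neighbours, in which an interval can be counted more than once. Of these neighbours, 32.2% were new SMC1-only, which form 27.4% of the list, and 17.1% were new with SMC3, which form 14.8%. Known intervals with SMC3 made up 45.6% of these neighbours and 51.8% of the list. Among the neighbours of new intervals with SMC3, 31.6% were new SMC1-only, 21.8% were of their own kind and 41.8% were known with SMC3. Known intervals without SMC3 formed 9.09% of the neighbours of their own kind and 5.97% of the list. For known intervals with SMC3 these values were 57.5% and 51.8%. Another of their own kind lay within 10 kb of 26.2% (25.5 to 27.0%) of the new SMC1-only intervals, against 23.9% (22.9 to 24.9%) of new intervals with SMC3, 6.27% (5.43 to 7.23%) of known intervals without SMC3 and 37.5% (36.9 to 38.1%) of known intervals with SMC3. These classes differ in number. Runs of 3 or more in a row held 3133 (24.3%), while 5928 (46.0%) stood alone between intervals of other classes. The longest run held 8 on chromosome 3 from 86898578 to 86949215, over 50.6 kb, a feature picked out after its value was seen.

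Some new SMC1-only intervals sat directly beside another SMC1 interval. Fewer than 500 bp separated 1112 of them (8.62%, 8.15 to 9.12%) from the next SMC1 interval. So close a neighbour was found for 13.6% (12.8 to 14.5%) of new intervals with SMC3. Known intervals had nearly the same share as the new SMC1-only ones, 8.27% (7.30 to 9.34%) without SMC3 and 8.52% (8.17 to 8.88%) with SMC3. For 562 of the 1112 new SMC1-only intervals (50.5%) that neighbour overlapped SMC3, the lowest share of any class. The share was 75.8% of 949 new intervals with SMC3, 59.9% of 232 known ones without SMC3 and 77.7% of 2073 known ones with SMC3. The lists do not record whether such pairs were called as parts of 1 region.

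The widest new SMC1-only interval was 1528 bp long, on chromosome 18 from 24279215 to 24280742, with SMC3 70315 bp and the nearest wild-type interval 65947 bp away. The next 2 were 1481 bp each. That on chromosome 16 from 55820386 to 55821866 had an SMC3 interval 141 bp away and a wild-type SMC1 interval 341 bp away, whereas that on chromosome 19 from 20558457 to 20559937 lay 28236 bp from SMC3. The fourth, 1435 bp on chromosome 5 from 91287733 to 91289167, was 2260 bp from SMC3 and 1924 bp from wild-type SMC3. The fifth, 1412 bp on chromosome 2 from 139925708 to 139927119, was 17177 bp from SMC3. Great width thus occurred both beside other cohesin intervals and far from them.

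The new SMC1-only intervals were spread over all autosomes at similar shares of the SMC1 list, from 25.9% on chromosome 5 to 30.6% on chromosome 13, with a mean of 27.6% ± 1.15 (SD over 19 autosomes). Their density was 5.34 ± 0.759 per Mb of the span covered by any list, from 4.16 on chromosome 14 to 7.13 on chromosome 11, against 14.0 ± 2.07 per Mb for the rest of the SMC1 list. Chromosome X carried 221, or 1.36 per Mb, and the rest of the SMC1 list was sparse there too, at 4.22 per Mb. New SMC1-only intervals were 24.4% (21.7 to 27.3%) of the SMC1 intervals on X.

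On chromosome X a larger part of the new SMC1 intervals had no SMC3. The share was 73.9% (68.7 to 78.6%) of 299 new intervals on X, against 64.8% ± 1.57 (SD) over the 19 autosomes, on which it ranged from 62.3 to 67.9%. Intervals were also narrower on X. The median width of new SMC1-only intervals on X was 393 bp, against autosome medians of 428.5 to 464.5 bp, and that of new intervals with SMC3 was 454 bp, against 529 to 585 bp. The part of width in the share on X was not tested.

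**Figure D5:**
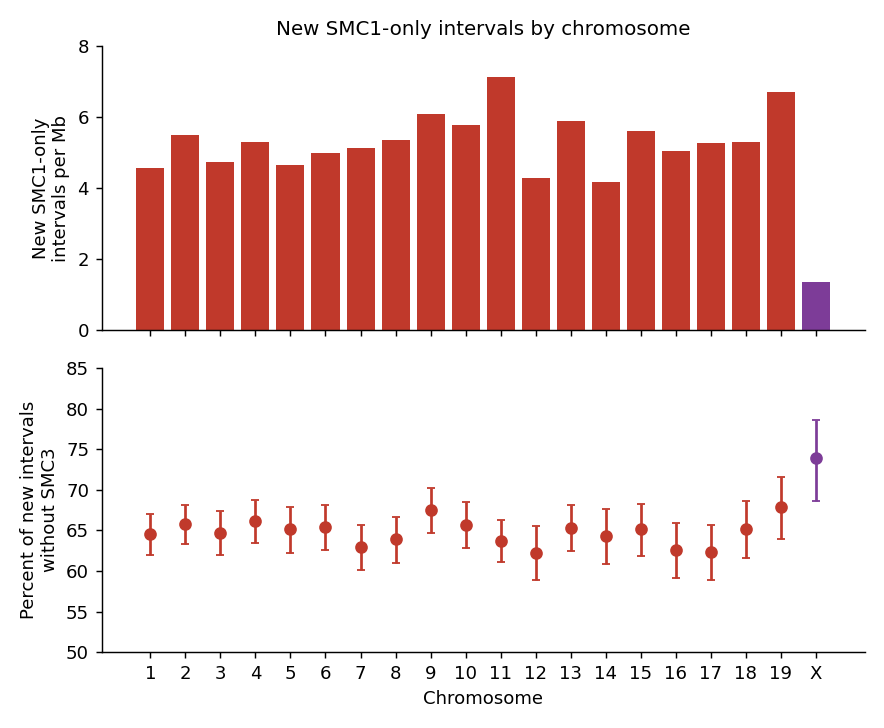
New SMC1-only intervals per Mb (upper panel) and as percent of the new SMC1 intervals of the chromosome (lower panel, axis from 50 to 85%, bars are 95% Wilson intervals) on the 19 autosomes and X. Chromosome X is lowest in density, at 1.36 per Mb against 4.16 to 7.13, and highest in percent without SMC3, at 73.9% against 62.3 to 67.9%.

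New SMC1-only intervals were dense where other cohesin intervals were dense. Over 2450 windows of 1 Mb that held any SA1-null SMC1 or SMC3 or wild-type SA1 interval, the median was 4 new SMC1-only intervals per window, 10% of windows held 12 or more, and 453 (18.5%) held none. Across windows their number went with that of new intervals with SMC3 (Pearson r = 0.74, Spearman rho = 0.78), of known intervals with SMC3 (r = 0.73, rho = 0.79), of wild-type SA1 intervals (r = 0.68, rho = 0.74) and of new SMC3 intervals without SMC1 (r = 0.58, rho = 0.61). The relation was lower for known intervals without SMC3 (r = 0.43, rho = 0.45) and for SA1-null SA2 (r = 0.55, rho = 0.59). These 2 sets are small, with 2807 and 6352 intervals, as are the 2941 new SMC3 intervals without SMC1, against 26602 wild-type SA1 intervals. The part of set size in these values was not tested. These windows share libraries, mappability and base composition, so the values are descriptions only. In the 1635 windows with at least 10 SMC1 intervals, new SMC1-only intervals made up a median of 27.3% of them, and the middle 80% of windows spanned 14.3 to 40.7%.

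Their share changed little with the density of SMC1 intervals. With those windows sorted by number of SMC1 intervals into 4 groups of equal size, new SMC1-only intervals made up 24.8% in the sparsest group, then 28.2%, 29.0% and 27.6% in the densest. New intervals with SMC3 ran from 11.4% in the sparsest group through 13.8% and 14.9% to 17.2% in the densest. The 3 windows with most new SMC1-only intervals held 27, 23 and 22. They spanned bases 63000001 to 64000000 of chromosome 9, bases 73000001 to 74000000 of chromosome 7 and bases 11000001 to 12000000 of chromosome 8. New SMC1-only intervals were 34.6, 39.0 and 37.9% of the 78, 59 and 58 SMC1 intervals in these windows. All 3 also held many known intervals with SMC3 (32, 25 and 25), and their SA1-null SA2 intervals numbered 3, 11 and 6.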

How the data were processed

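The authors deposited 10 interval lists of 3 columns (chromosome, start, end). Their names give a false discovery rate of 10, no minimum fold change, the input used and, for SA1-null SMC1, 2 replicates together. Libraries were made from 100 to 200 bp fragments with 14 PCR cycles, per the labels' protocols. Coordinates are in mm9 and reads passed through CASAVA 1.7, per the submitters' processing notes. No label or header names an aligner or a peak caller. On 10 of 20 chromosomes, intervals ran past the last gene of a GRCm38.p6 table, so its coordinates were not used. Genes and sequences were not analysed here.

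Starts are printed 1-based, with the deposited ones taken as 0-based. Distances count the bases between intervals. Overlaps were computed in Python 3.11.15 with numpy 2.4.6 and scipy 1.17.1, tested on simulated data, and their counts matched those of bedtools 2.31.1 in each of 100 list pairs. The selection and the comparisons were chosen with earlier results of these data known. Positions named are the 5 widest, the 5 widest with SA2, the widest in a background list, the 3 closest to SMC3 and the 3 fullest windows of 1 Mb. The 3 intervals just excluded by the selection, the sixth interval in a background list and the longest run were added after their values were seen.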

Additional observations from a re-analysis of the deposited data

How the results depend on the processing

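Each of 9 values was recomputed under 7 settings, of which the list of equal length was added after the data were seen. Of 61 recomputed values, 38 stayed within the main value's interval (for the number of new SMC1-only intervals, within 1.5 times). The share with an SA2 interval and the share in a background list did so under every setting that gave a value. Chromosome X and the background lists cannot give their own share once removed. With an overlap of 50% of the shorter interval required, the new SMC1-only intervals made up 28.2% of the list, 31.3% lay within 5 kb of SMC3 and 25.3% within 5 kb of a wild-type interval. With gaps of up to 500 bp counted as shared, these shares were 25.6%, 25.5% and 20.8%, and 24.7% had another within 10 kb. With intervals closer than 1000 bp merged, the shares in the same order were 26.3%, 23.2%, 19.1% and 19.4%. With intervals at or above the median width, the set numbered 3789 (16.1% of the list) with a median width of 629 bp, 1.11% on chromosome X, 32.0% within 5 kb of SMC3 and 14.8% with another within 10 kb. With the widest intervals, as many as in the SMC3 list, the values in that order were 6993, 20.1%, 546 bp, 1.19%, 31.2% and 20.0%. The last 2 settings admit fewer intervals by construction. The settings for overlap, gaps and merging add or remove intervals that lie close to others. Their shifts in the shares within 5 and 10 kb therefore follow at least in part from the settings themselves. No score was given, so width stood in for a stricter threshold. No paired analysis was possible because each group has a single list. Replicates could not be left out, since the 2 SA1-null SMC1 samples share 1 list. Depth is unknown, and a position without a called interval is not shown to lack the protein.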

Other observations

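The new SMC3 intervals without SMC1 in SA1-null cells, only 2941 in number and 519 bp wide in the median, lay close to few SMC1 intervals of any class. Such an SMC3 interval lay within 5 kb of 4.31% (3.97 to 4.68%) of the new SMC1-only intervals and 4.62% (4.15 to 5.14%) of new intervals with SMC3. The shares were lower for known intervals, at 2.46% (1.95 to 3.10%) without SMC3 and 2.77% (2.57 to 2.98%) with SMC3. Of the 506 SA1-null SA2 intervals outside every wild-type list, 495 overlapped no SA1-null SMC1 interval at all, and their median width was 443 bp. Over the whole lists, 5604 of the 47003 SMC1 intervals overlapped one of the 6352 SA2 intervals. That is a count of SMC1 intervals, so it is not on the same scale as the 495 of 506.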
